A study of Mus musculus with 24 samples.

Results

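The adrenergic receptors are the cell-surface receptors for noradrenaline and adrenaline. The group described here holds 8 receptor genes, Adra1a, Adra1b, Adra1d, Adra2a, Adra2b, Adra2c, Adrb1 and Adrb3, out of 18539 gene symbols on the arrays. Their probes were chosen by accession, not by their values, and 12 of 41174 probes matched, which covered 7 of the 8 genes. No probe matched Adrb3, the beta receptor best known from fat cells (GRCm38.p6 chromosome 8, 27225776 to 27230845), so it has no value. One probe stands for each gene, the one with the brightest mean signal in the tissue, or over both tissues where aorta and muscle were compared.

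The receptors were read in endothelial cells that were sorted as CD105+ and CD45- from the aorta and from leg muscle of male mice. Wild-type animals (WT, C57BL/6) and galectin-3 knockouts (KO, Galectin-3 (-/-), which lack Lgals3) received a high-fat diet (HFD, 60% of calories from fat) or chow (12%) for 8 weeks, starting at 8 weeks of age. The study asked how the endothelium of each strain responds to this diet. RNA of 3 experiments, each a pool of 3 animals per strain and diet by the methods and of 3 to 4 by the deposited design, gave 3 single-colour arrays in each of 8 groups, 24 in all. Aorta and muscle of a pool came from the same animals, and the 4 arrays of a tissue and experiment shared 1 slide. No slide held both tissues, so a difference between the tissues cannot be told apart from a difference between slides.

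Adrenergic receptors couple to G proteins. The alpha-1 receptors (Adra1a, Adra1b, Adra1d) act mainly through Gq, phospholipase C and calcium, the alpha-2 receptors (Adra2a, Adra2b, Adra2c) through Gi and lower cyclic AMP, and the beta receptors (Adrb1, Adrb3) through Gs and higher cyclic AMP. In vessels, alpha-1 receptors of smooth muscle are known for constriction, whereas alpha-2 receptors on endothelium are known for release of nitric oxide. Adra2a also serves as an inhibitory receptor of sympathetic nerve endings and of fat cells.

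All 9 endothelial markers examined (among them Pecam1, Cdh5 and Eng) were well above background on every array, and their summed log2 level was 6.57 to 8.06 in aorta and 8.03 to 8.56 in muscle. Markers of other cells were present too: all 6 fibroblast and all 7 smooth muscle markers were above background on every aorta array. The strain labels were checked as well. Lgals3, the gene removed in KO, had a signal well above background on 24 of 24 arrays, and in 11 of 12 pairs the KO signal was the higher one. Where its probe lies in the deleted gene was not analysed here, so it does not check the strain labels. A further check used 15 probes that separated the strains in experiments 2 and 3. On a scale with WT at 0 and KO at 1, the HFD arrays from experiment 1 stood at 0.32 (labelled WT) and 0.49 (labelled KO) in aorta and at 0.50 and 0.50 in muscle, apart from both strains. Values without experiment 1 are therefore given beside the main results of each comparison.

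Adra2a and Adra1b showed the largest differences between the tissues, and the bases before their start sites are therefore shown. Those of Adra2b are shown too, although its difference was smaller than those of Adrb1 and Adra2c, whose bases are not shown. The stretches shown are RefSeq sequences of GRCm38.p6, which end 1 base before the annotated start and read 5′ to 3′ on the strand of the gene. Capitals mark 4 short motifs, searched on both strands. The GC box was searched as GGGCGG. The core of the cyclic AMP response element was searched as TGACG. The TATA box was searched as TATAAA, and the CACCC box by its own letters. The first is chr19:54045154-54045258 on the plus strand, the second and the third are chr11:43901238-43901342 and chr11:43836490-43836594 on the minus strand, and the fourth is chr2:127363074-127363178 on the plus strand.
Adra2a: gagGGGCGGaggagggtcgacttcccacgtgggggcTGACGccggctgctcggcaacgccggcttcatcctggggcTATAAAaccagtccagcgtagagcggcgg
Adra1b start site 1: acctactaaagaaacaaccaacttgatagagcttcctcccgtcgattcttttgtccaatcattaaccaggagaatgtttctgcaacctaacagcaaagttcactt
Adra1b start site 2: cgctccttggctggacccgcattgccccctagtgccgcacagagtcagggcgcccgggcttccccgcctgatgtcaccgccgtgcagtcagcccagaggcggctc
Adra2b: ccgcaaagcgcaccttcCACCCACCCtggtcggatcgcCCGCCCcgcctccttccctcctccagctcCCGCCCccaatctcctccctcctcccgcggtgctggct
The stretch of Adra2a held a TATA box 24 bases, a response element core 65 bases and a GC box 97 bases upstream of the start. The stretch of Adra2b held 2 GC boxes and 2 CACCC boxes that overlap. Neither stretch of Adra1b held any of the 4 motifs, but over 250 bases start site 1 had a CACCC box 197 bases upstream and start site 2 had a GC box at 180 and 2 CACCC boxes, the nearer at 205. Of the receptors not shown, Adra2c had none of the 4 motifs over 250 bases. Adrb1 had a GC box at 197, a response element core at 86 and 6 CACCC boxes, the nearest at 26. In windows of 250 bases before all 32851 starts of the table, the GC box was present in 32.7%, the response element core in 17.8%, the TATA box in 12.4% and the CACCC box in 52.0%. These matches describe the letters only.

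Levels are given as the log2 of the processed signal relative to the 75th percentile of its array, so 0 is the level of that percentile. Adra1b (chromosome 11, 43774605 to 43901250) was the member that differed most between the tissues. In aorta, the arrays of experiments 1, 2 and 3 read 1.00, −0.24 and −0.08 for WT chow, and 1.24, 0.29 and −0.64 for WT HFD. The arrays labelled KO read −0.71, −1.58 and −0.95 on chow, and 0.70, 0.41 and −0.99 on HFD. In muscle, the levels were −2.97, −7.05 and −4.79 for WT chow, and −2.31, −6.89 and −2.01 for WT HFD. Every muscle array lay below every aorta array of this probe, and the muscle arrays were far more scattered. The muscle levels of KO were −2.34, −6.06 and −4.29 on chow and −2.27, −3.81 and −3.92 on HFD. Among the muscle arrays, experiment 2 was the lowest in WT and in KO chow, and 11 of 12 arrays were well above background.

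Over all 4 groups, Adra1b was 3.93 ± 0.47 log2 higher in aorta than in muscle (limma estimate ± SE, adjusted p = 8.6e-05, 15.2-fold, higher in 12 of 12 pairs of tissues from the same pool). The 4 pairs of an experiment share 1 aorta slide and 1 muscle slide. The 12 pairs are thus not independent, here and for the receptors below. Within the groups, the difference ranged from 3.15 (KO chow) to 5.16 (WT chow) on the log2 scale. The other Adra1b probe was not well above background on any array of 3 of the 4 aorta groups and was not tested. It read higher in aorta in 1 of 12 pairs, with differences from −2.56 to 0.22, so the result rests on 1 probe that the other did not match.

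**Figure D1:**
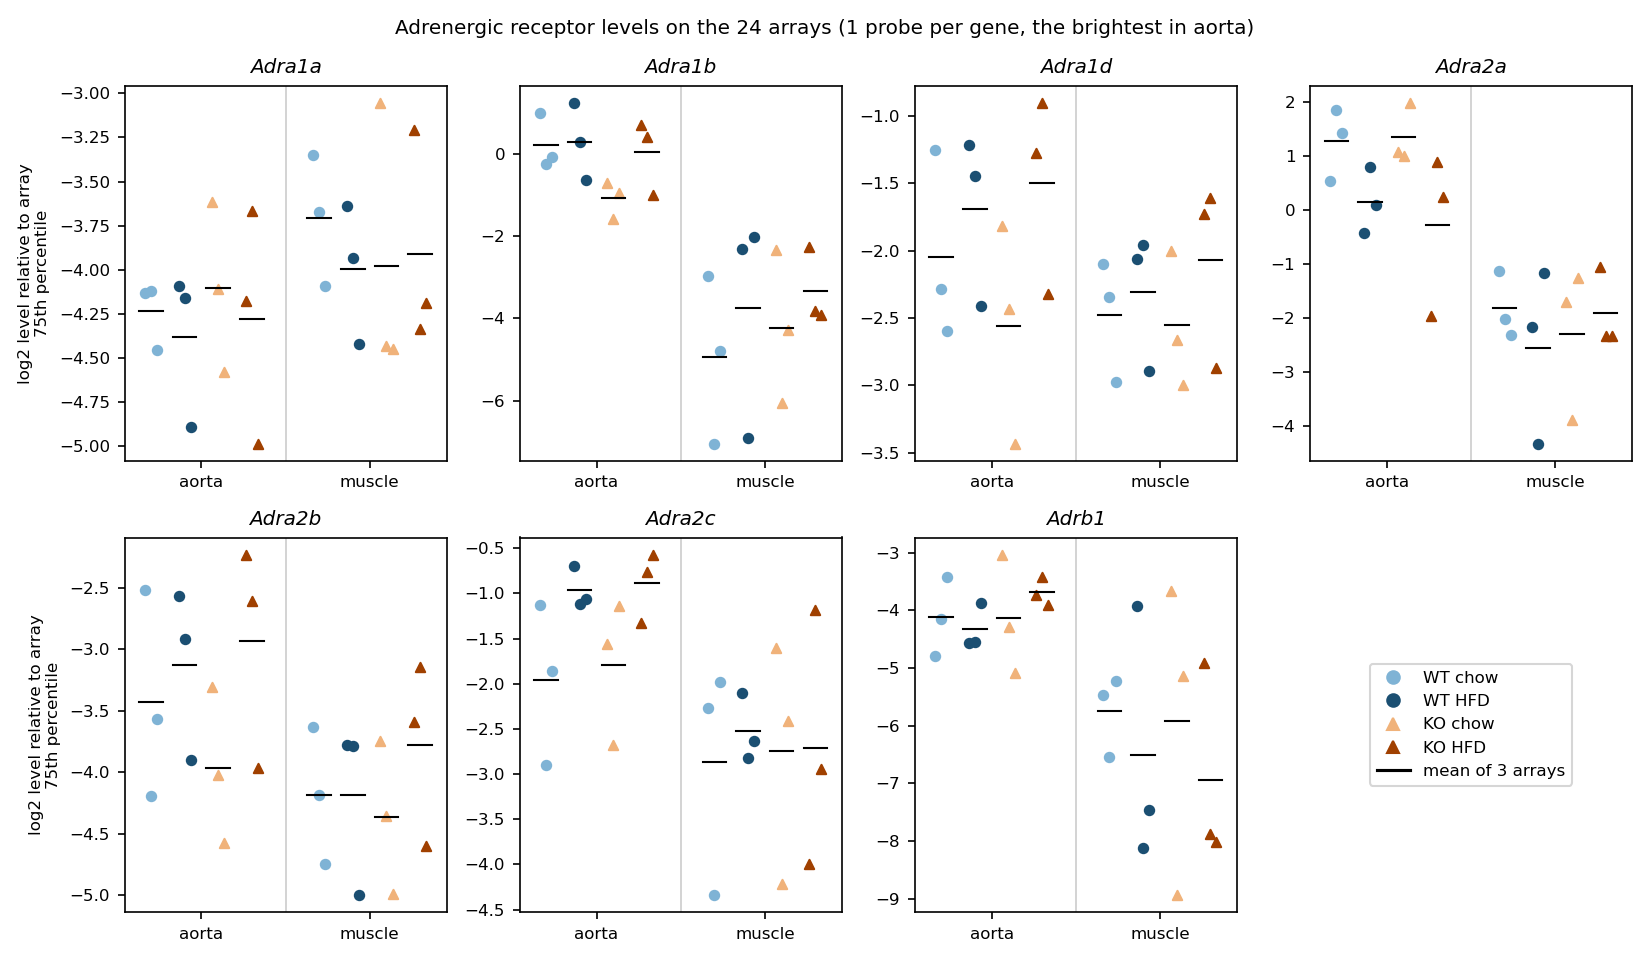
Log2 level of each of 7 receptor genes on the 24 arrays, relative to the 75th percentile of the array, by tissue and group, with the mean of 3 arrays as a bar and the experiments 1 to 3 from left to right in a group. The aorta and muscle arrays are separate for Adra1b, from −1.58 upward against −2.01 downward, and overlap for the other 6 genes.

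Of the 7 receptors tested between the tissues, 6 were called higher in aorta (limma, Benjamini-Hochberg adjusted p under 0.05) and none lower. The background of such calls was high: 56.2% of the 27387 probes tested were called, 18% higher and 38.3% lower in aorta, with a median log2 difference of −0.27 over all probes. The median over the 7 receptors was 1.31. The authors' own log2 table is scaled to a common percentile within each tissue. This moves the median of all probes to −0.01 and the share of calls that are higher from 31.9% to 56.4%. With it, and under the same filter, the same number of receptors, 6, was called higher.

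Adra2a (chromosome 19, 54045259 to 54048982), the inhibitory alpha-2A receptor, was 2.77 ± 0.45 log2 higher in aorta (limma adjusted p = 0.00058, 6.81-fold, higher in 11 of 12 pairs). In aorta, its levels in experiments 1, 2 and 3 were 0.55, 1.86 and 1.42 for WT chow and 1.08, 1.00 and 1.98 for KO chow. On HFD, they were −0.42, 0.81 and 0.10 for WT and −1.95, 0.89 and 0.25 for KO. The KO HFD array of experiment 1 was the lowest of the aorta and the only one that fell into the range of muscle. Muscle levels were −1.13, −2.01 and −2.30 for WT chow, and −2.16, −4.32 and −1.17 for WT HFD. They were −1.70, −3.89 and −1.26 for KO chow and −1.05, −2.34 and −2.32 for KO HFD. The muscle arrays showed no common order by diet. Both other Adra2a probes were also called higher in aorta, by 2.74 and by 1.23 on the log2 scale (limma adjusted p = 0.00067 and 0.00044).

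Adra2c (chromosome 5, 35278566 to 35281763), the alpha-2C receptor, was 1.31 ± 0.22 log2 higher in aorta (limma adjusted p = 0.00066, 2.48-fold, higher in 12 of 12 pairs). Its aorta levels were −1.12, −2.90 and −1.86 for WT chow, −0.69, −1.12 and −1.06 for WT HFD, −1.55, −2.68 and −1.14 for KO chow, and −1.33, −0.76 and −0.57 for KO HFD. Its muscle levels spanned −4.34 to −1.18 with a median of −2.53. The ranges of the tissues overlapped, while each aorta array lay above the muscle array of its own pool. Adra2b (chromosome 2, 127363179 to 127367221), the alpha-2B receptor, was 0.76 ± 0.13 log2 higher in aorta (limma adjusted p = 0.00064, 1.70-fold, higher in 11 of 12 pairs). Its levels had a median of −3.44 in aorta (lowest −4.57, highest −2.23) and of −3.99 in muscle (−5.00 to −3.14), and so overlapped widely.

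The other alpha-1 receptors differed little between the tissues. Adra1d (chromosome 2, 131545357 to 131562497) was 0.40 ± 0.10 log2 higher in aorta (limma adjusted p = 0.0079, higher in 11 of 12 pairs), with a median level of −2.05 in aorta and −2.22 in muscle. This call was lost without any one of the experiments 1, 2 or 3 (limma adjusted p = 0.099, 0.061 and 0.051). Adra1a (chromosome 14, 66635251 to 66771240) had a log2 difference of −0.35 ± 0.15 (limma adjusted p = 0.069, higher in aorta in 2 of 12 pairs) and was not called. Without experiment 1 it was −0.18, and without experiment 2 it was −0.57 and was called (limma adjusted p = 0.018). Its median level was −4.15 in aorta and −4.01 in muscle.

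Adrb1 (chromosome 19, 56722117 to 56725150), the beta-1 receptor, was called 2.21 ± 0.52 log2 higher in aorta (limma adjusted p = 0.0051, higher in 11 of 12 pairs). Its levels were −5.09 to −3.03 in aorta and −8.94 to −3.67 in muscle, and the ranges overlapped. In muscle, 6 of 12 arrays were well above background, against 12 of 12 in aorta, so the muscle side is in part background and the size of the difference is not exact. The call was lost without experiment 2 (1.43, limma adjusted p = 0.085) or without experiment 3 (2.12, limma adjusted p = 0.060). The other Adrb1 probe gave −0.21 ± 0.16 (limma adjusted p = 0.29). The 2 probes of Adrb1 thus disagreed in sign.

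**Figure D2:**
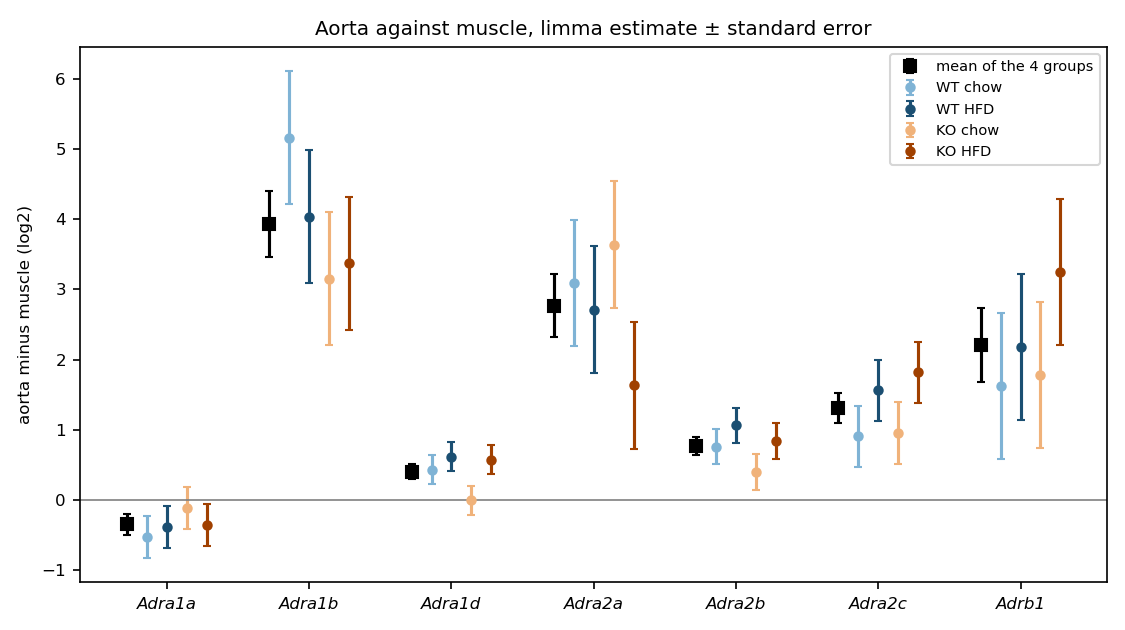
Difference between aorta and muscle in log2 for 7 receptor genes, limma estimate ± standard error, for the mean of the 4 groups (squares, 12 pairs) and within each group (circles, 3 pairs each). Adra1b stands highest at 3.93, followed by Adra2a at 2.77, and Adra1a is the only one with a mean below 0, at −0.35.

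Adra1b, Adra2a, Adra2b and Adra2c were called higher in aorta in each alternative that gave them a value, including the fits without any one experiment. Without experiment 1 the differences were 4.38 for Adra1b, 3.49 for Adra2a, 1.31 for Adra2c, 0.63 for Adra2b and 3.08 for Adrb1 on the log2 scale. Lists of markers for other cells also differed between the tissues. In aorta, the summed log2 level of the 6 fibroblast markers was 7.71 to 8.90, against 4.16 to 7.38 in muscle, and all 6 were called higher. The 5 brown adipocyte markers summed to 2.26 to 6.73 in aorta and to 0.13 to 2.30 in muscle, and 4 of them were called higher, with Ucp1, the uncoupling protein of brown fat, well above background on 12 aorta and 2 muscle arrays. Of the 7 adipocyte markers, 6 were tested, and 5 were called higher and 1 lower in aorta. Their sums overlapped, at 6.22 to 8.57 in aorta and 6.65 to 7.62 in muscle. Called lower in aorta were 8 of 9 endothelial, 5 of 7 smooth muscle (1 higher), 4 of 6 pericyte (1 higher) and 7 of 7 skeletal muscle fibre markers. Of 6 Schwann cell and neuron markers, 2 were called higher and 3 lower. The part of these cells in the receptor differences was not tested, and in such bulk samples fewer cells of a type and less RNA per cell cannot be told apart.

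The main question of the study was the diet. No receptor was called between HFD and chow in aorta, in WT, in KO or in the mean of both strains (limma, paired within experiments). The backgrounds of called probes were 0%, 0% and 0.0309% of 25865 probes. At an unadjusted p under 0.05 there were 0 receptors in WT, 4 of 7 in KO and 4 of 7 in the mean, against 5.77%, 11.3% and 15.1% of all probes. The methods' t-test over the 3 ratios of a strain, adjusted over all probes, called no receptor. It called 0 of all probes in WT and in KO, so it cannot decide the question for the receptors.

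Adra2a was lower on HFD in all 6 pairs of aorta arrays. Its log2 ratios of HFD to chow were −0.97, −1.06 and −1.32 in WT and −3.03, −0.11 and −1.73 in KO, in the order of the experiments. The KO ratios were far more scattered than those of WT. The mean over the strains was −1.37 ± 0.37 (limma unadjusted p = 0.0080, adjusted p = 0.22), and without experiment 1 it was −1.05 (adjusted p = 0.41). The second probe of Adra2a gave −1.43 and the third, the dimmest, gave 0.56 (limma adjusted p = 0.21 and 0.34), so the probes disagreed in sign.

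Markers of fat cells and of endothelium were also lower on HFD in aorta on average. The summed log2 level of the adipocyte markers was 7.39 to 7.73 on chow and 6.60 to 6.61 on HFD in WT, and 7.43 to 8.57 on chow and 6.22 to 7.17 on HFD in KO. The ranges of the diets did not overlap in either strain. Of the 6 adipocyte markers tested, 5 had an unadjusted p under 0.05 and 0 were called in the mean over the strains, with a median log2 difference of −3.82. Adipoq, which encodes the fat cell hormone adiponectin, had −4.79 ± 0.60 (limma adjusted p = 0.079). The brown adipocyte markers summed to 2.61 to 4.88 on chow and 2.26 to 3.39 on HFD in WT, and to 4.09 to 6.73 and 2.97 to 3.76 in KO. All 9 endothelial markers had a mean diet difference below 0 (median −0.59), 3 of them with an unadjusted p under 0.05 and 0 called. In WT of experiment 3, the brown adipocyte sum was 2.61 on chow and 3.39 on HFD. The endothelial sum there was 7.07 on chow and 7.64 on HFD, while both sums were lower on HFD in every other pair. The part of these lists in the Adra2a values was not tested.

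**Figure D3:**
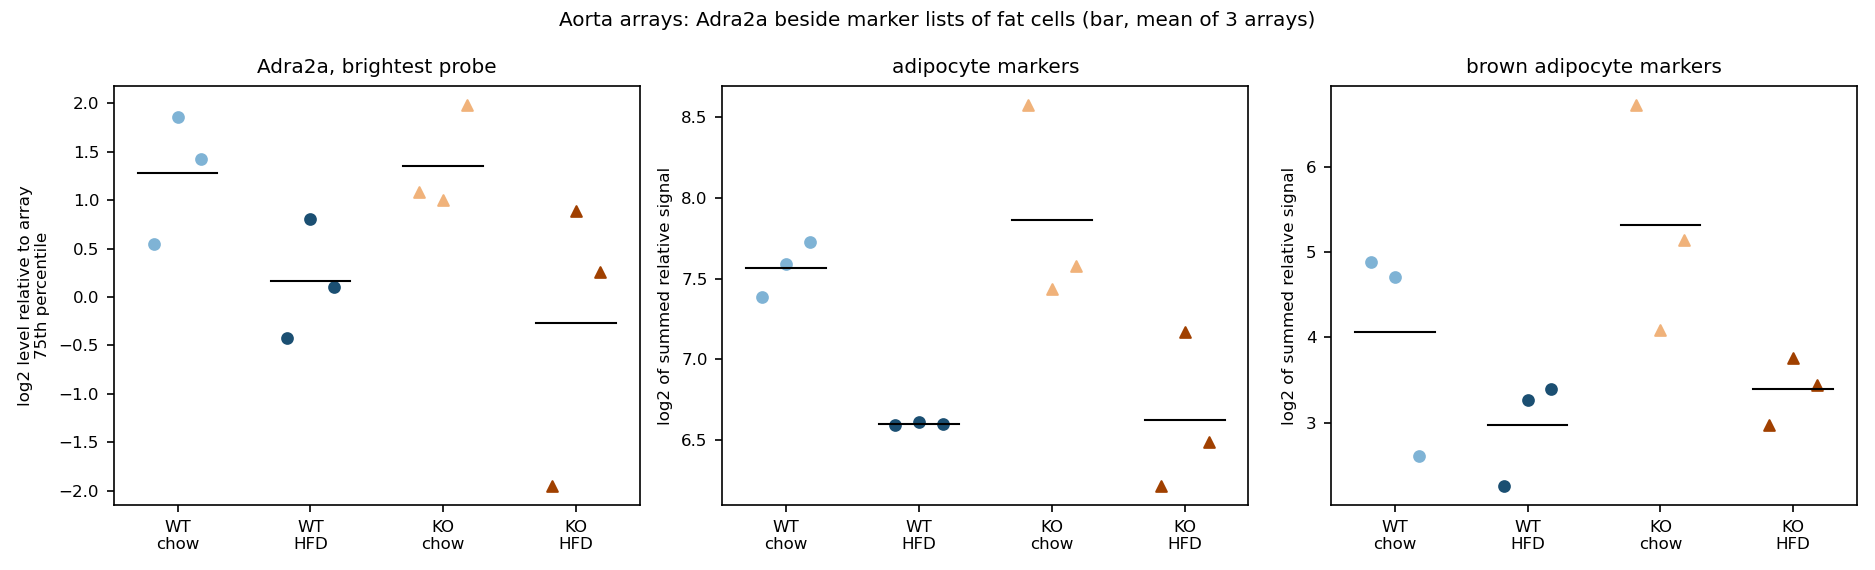
Aorta arrays only: log2 level of Adra2a relative to the 75th percentile of the array (left), and log2 of the summed relative signal of 7 adipocyte (middle) and 5 brown adipocyte marker genes (right), by strain and diet, with 1 point per array and the mean of 3 as a bar. The adipocyte sum is 7.39 or more on every chow array and 7.17 or less on every HFD array.

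Adra1d and Adra2c ran the other way and were higher on HFD in all 6 pairs of the aorta. The ratios of Adra1d were 0.04, 0.84 and 0.18 in WT and 0.54, 1.53 and 1.11 in KO on the log2 scale, with a mean of 0.71 ± 0.22 (limma unadjusted p = 0.015, adjusted p = 0.25). Those of Adra2c were 0.43, 1.78 and 0.80 in WT and 0.23, 1.92 and 0.57 in KO, with a mean of 0.95 ± 0.30 (limma unadjusted p = 0.017, adjusted p = 0.25). Experiment 2 gave the largest ratio of both genes in both strains. Without it, the means were 0.47 for Adra1d and 0.51 for Adra2c, and without experiment 1 they were 0.91 and 1.27. Some marker lists of other cells lay on the same side of 0 in aorta. Fibroblast markers were above 0 in 6 of 6 (median 0.70), Schwann cell and neuron markers in 5 of 5 (0.61) and pericyte markers in 5 of 6 (0.55). In each of these lists 3 markers had an unadjusted p under 0.05 and 0 were called. Smooth muscle markers were above 0 in 6 of 7, but with a median of 0.11 and 1 with such a p. Macrophage markers were above 0 in 2 of 4 (−0.17) and skeletal muscle fibre markers in 3 of 7 (−0.01). The adipocyte and endothelial lists lay below 0, as given above. The part of these lists in the values of Adra1d and Adra2c was not tested.

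Adra2b had a mean diet difference of 0.67 ± 0.27 log2 in aorta (limma adjusted p = 0.32), above 0 in 3 of 3 KO pairs and 1 of 3 WT pairs. It was 0.32 without experiment 2 and 0.74 without experiment 1. Adra1b had 1.12 ± 0.44 in KO and 0.07 ± 0.44 in WT (limma adjusted p = 0.44 and 1.00). Without experiment 1 these were 0.97 and −0.01, and without experiment 2 the KO value was 0.68. The differences of Adra1a and Adrb1 were within 1 SE of 0 in the mean over the strains, at −0.16 ± 0.21 and 0.12 ± 0.29, and were −0.11 and 0.30 without experiment 1.

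In muscle, 6 receptors were tested, and again none was called on HFD, against 0% of 25682 probes in WT, 0.00389% in KO and 0.288% in the mean. At an unadjusted p under 0.05 there was 1 receptor in the mean and 0 in either strain alone, against 16.4%, 12.1% (WT) and 8.49% (KO) of all probes. That receptor was Adra1b, which was higher on HFD in all 6 pairs. Its log2 ratios were 0.66, 0.15 and 2.77 in WT and 0.08, 2.25 and 0.36 in KO, with a mean of 1.05 ± 0.42 (limma unadjusted p = 0.044, adjusted p = 0.29). Without experiment 1 the mean was 1.39 (limma adjusted p = 0.46). All 6 fibroblast markers were above 0 on HFD in muscle as well (median 1.17, 4 with an unadjusted p under 0.05, 0 called), and so were the 3 macrophage markers tested (median 2.92, 2 with such a p, 0 called). Other lists went the other way or were split. Pericyte markers were above 0 in 0 of 6 (median −0.52, 5 with such a p, 0 called). Adipocyte markers were above 0 in 0 of 6 (median −0.65) and smooth muscle markers in 3 of 7 (median −0.07). In KO of experiment 2, where Adra1b had its largest KO ratio, the summed fibroblast level was 4.16 on chow and 6.81 on HFD. In WT of experiment 3, which gave the largest WT ratio, it was 4.64 and 5.90. It was also higher on HFD in the other pairs, where Adra1b had smaller ratios. These sums were 6.39 and 7.34 in WT of experiment 1 and 4.30 and 4.83 in WT of experiment 2. In KO they were 6.74 and 7.38 in experiment 1 and 5.07 and 5.13 in experiment 3. The summed macrophage level in KO of experiment 3 was −1.33 on chow and −3.67 on HFD. The part of these lists in the Adra1b values was not tested. Adra1d was also higher in all 6 pairs, by 0.33 ± 0.18 (limma adjusted p = 0.41), with a mean of 0.13 without experiment 2 and of 0.41 without experiment 1. Adra2a and Adra2c had mean differences of −0.18 ± 0.50 and 0.19 ± 0.67, within 1 SE of 0, with single pairs of Adra2c from −2.38 to 3.03. Without experiment 1 they were −0.17 and 0.84, and without experiment 2 Adra2c was at −0.85. Adra1a and Adra2b had −0.11 ± 0.14 and 0.29 ± 0.20 in muscle (limma adjusted p = 0.72 and 0.50), and −0.06 and 0.43 without experiment 1. Without experiment 2, Adra2b was at 0.04. Adrb1 was not tested in muscle, where its brightest probe was above background on 8 of 12 arrays.

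**Figure D4:**
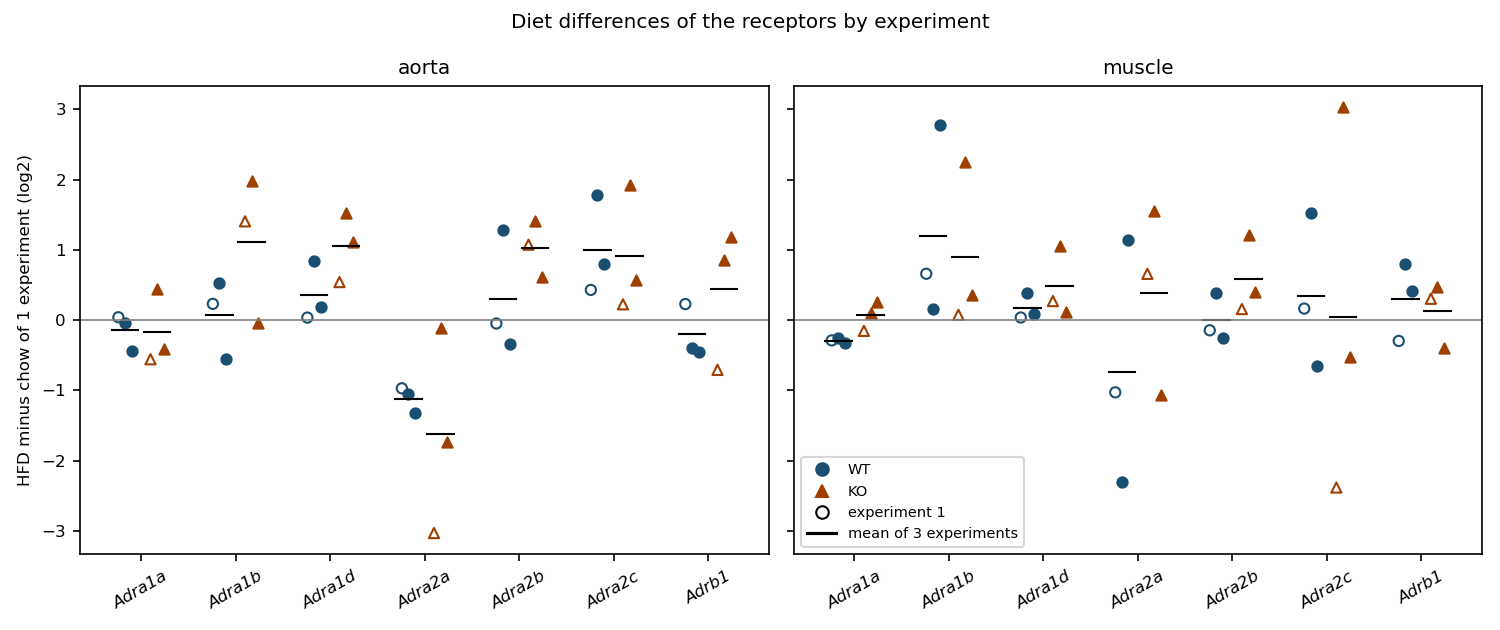
Log2 ratio of HFD to chow for each receptor, strain and experiment, in aorta (left) and muscle (right), with the mean of 3 experiments as a bar and experiment 1 as open symbols. In aorta, all 6 ratios of Adra2a lie below 0, from −3.03 to −0.11, and all 6 of Adra1d and of Adra2c lie above 0; Adrb1 in muscle is drawn from its brightest probe there and was not tested.

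The second question was whether the strains differ. No receptor was called between the arrays labelled KO and WT in aorta (limma fit of group means), against 0.0116% of probes called on chow, 0.00387% on HFD and 0.0116% in the mean. At an unadjusted p under 0.05 there was 1 receptor on chow and 0 on HFD and in the mean, against 4.41%, 1.15% and 3.39% of probes. The receptor was Adra1b, with a log2 difference of −1.31 ± 0.58 on chow (limma unadjusted p = 0.045, adjusted p = 1.00), lower in KO in 3 of 3 pairs. On HFD, its difference was −0.26 ± 0.58. Without experiment 1 the values were −1.10 on chow (limma unadjusted p = 0.11) and −0.12 on HFD, and the other receptors lay between 0.12 and 0.54 on HFD. In muscle, no receptor was called or had an unadjusted p under 0.05. The backgrounds were 0% called on chow, on HFD and in the mean, and 2.42%, 3.15% and 3.27% at an unadjusted p under 0.05. Without experiment 1, the 6 receptors lay between −0.09 and 0.66 on HFD in muscle.

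The difference of the diet responses between the strains was tested directly. No receptor passed in aorta or muscle (limma, background 0% in both), and none had an unadjusted p under 0.05, against 2.62% of probes in aorta and 4.12% in muscle. The values farthest from 0 were 1.05 ± 0.62 log2 for Adra1b in aorta and 1.12 ± 1.01 for Adra2a in muscle. The latter was 0.83 without experiment 1, −0.26 without experiment 2 and 2.77 without experiment 3 (limma unadjusted p = 0.0088, adjusted p = 1.00), so its size and direction rest on single experiments. Without experiment 1, Adra1b in aorta was 0.98 and Adra2a in aorta was 0.27 in place of −0.51. Adrb1 in aorta was then 1.45 in place of 0.65 (limma unadjusted p = 0.039, adjusted p = 1.00). Adra1d, Adra2b and Adra1b had a higher ratio in KO than in WT in all 3 experiments of the aorta, with differences of 0.71 ± 0.43, 0.73 ± 0.53 and 1.05 ± 0.62, although none passed the test. Without experiment 1, whose HFD arrays stood between the strains, the difference was 0.81 for Adra1d and 0.54 for Adra2b. These receptors were read on the same arrays, so their agreement is not independent.

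The receptors varied together in part across the arrays of a tissue. Over the 12 aorta arrays, Pearson's r was 0.93 between Adra1d and Adra2b and 0.85 between Adra1b and Adra2b, and over the 12 muscle arrays Adra1d and Adra2b had 0.97. Arrays of experiment 3 were the lowest for Adra1d and Adra2b in nearly all groups, and the arrays of 1 experiment share a slide. Adra2a ran opposite to Adra2b in aorta (−0.66). The symbols most like Adra2a over the aorta arrays were Scx, Lsr and Gcnt1 (0.95, 0.95 and 0.94), among 13857 compared. Those most like Adra1b were Alg6, Abhd14b and Oprl1 (0.96, 0.94 and 0.94). For Adra1d in muscle they were Slc8a1, Cplx3 and Adgrb2 (0.99, 0.99 and 0.98). These are descriptions over 12 arrays that share slides and pools.

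The genes that act before and after the receptors were taken as lists. None of the tested genes of the 8 lists was called for diet, strain or their interaction. Their calls between the tissues stand beside 18% higher and 38.3% lower in aorta over all probes. For the supply and removal of noradrenaline, 6 of 11 tested genes were called higher in aorta and 2 lower. Slc6a2, the noradrenaline transporter, was 5.58 ± 0.42 log2 higher in aorta (limma adjusted p = 4.8e-06). It was above background on 11 aorta and 4 muscle arrays, so the muscle side is largely background and the size is not exact. Slc18a2, the vesicular monoamine transporter, had 3.40 ± 0.50 and Maob, a monoamine oxidase, had 3.55 ± 0.33 (limma adjusted p = 0.00031 and 1.7e-05), of which Slc18a2 was above background on 6 of 12 muscle arrays. Slc18a1, a related vesicular transporter, had −1.28 ± 0.24 (limma adjusted p = 0.0014). Slc6a2 also had the diet value farthest from 0 of these lists in aorta, 4.10 ± 0.71 on HFD (limma unadjusted p = 0.00080, adjusted p = 0.12). It stood beside the Schwann cell and neuron markers given above, 5 of 5 above 0 with a median of 0.61, whose part was not tested.

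Among G protein subunits, 7 of 9 were called lower in aorta, and 1, Gnao1, was called higher by 2.35 ± 0.44 log2 (limma adjusted p = 0.0014). Gnas, the alpha subunit of Gs, had −0.78 ± 0.17, and Gnai2, an alpha subunit of Gi, had −0.93 ± 0.09. Of 9 adenylyl cyclases, which make cyclic AMP, 5 were called higher and 3 lower in aorta. Adcy7 had 4.94 ± 0.50 and Adcy4 had −1.31 ± 0.18 on the log2 scale (limma adjusted p = 2.8e-05 and 0.00018). Adcy7 also had diet values of 2.04 ± 0.44 in aorta and 2.15 ± 0.39 in muscle (limma adjusted p = 0.17 and 0.098).

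Of the 9 cAMP phosphodiesterases tested, which break cyclic AMP down, 4 were called lower and 1 higher in aorta, with Pde8b at −3.67 ± 0.26 and Pde2a at −1.49 ± 0.17 log2. Protein kinase A and EPAC genes gave 2 higher and 4 lower of 10, which is near the shares over all probes of 18% and 38.3%, led by Prkar2b, a regulatory subunit, at 2.84 ± 0.29. In the phospholipase C arm, 3 were called higher and 7 lower of 11. Prkca, a protein kinase C, had 2.37 ± 0.34 and Plcb4, a phospholipase C, had −1.70 ± 0.18. Receptor kinases and arrestins, which switch the receptors off, gave 1 higher and 4 lower of 6. Grk2 and Grk3 had −1.33 ± 0.12 and −1.37 ± 0.19, and Arrb1, an arrestin, had 0.74 ± 0.09. The RGS proteins, which end G protein signals, gave 2 higher and 2 lower of 6, with Rgs4 at −2.05 ± 0.32.

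**Figure D5:**
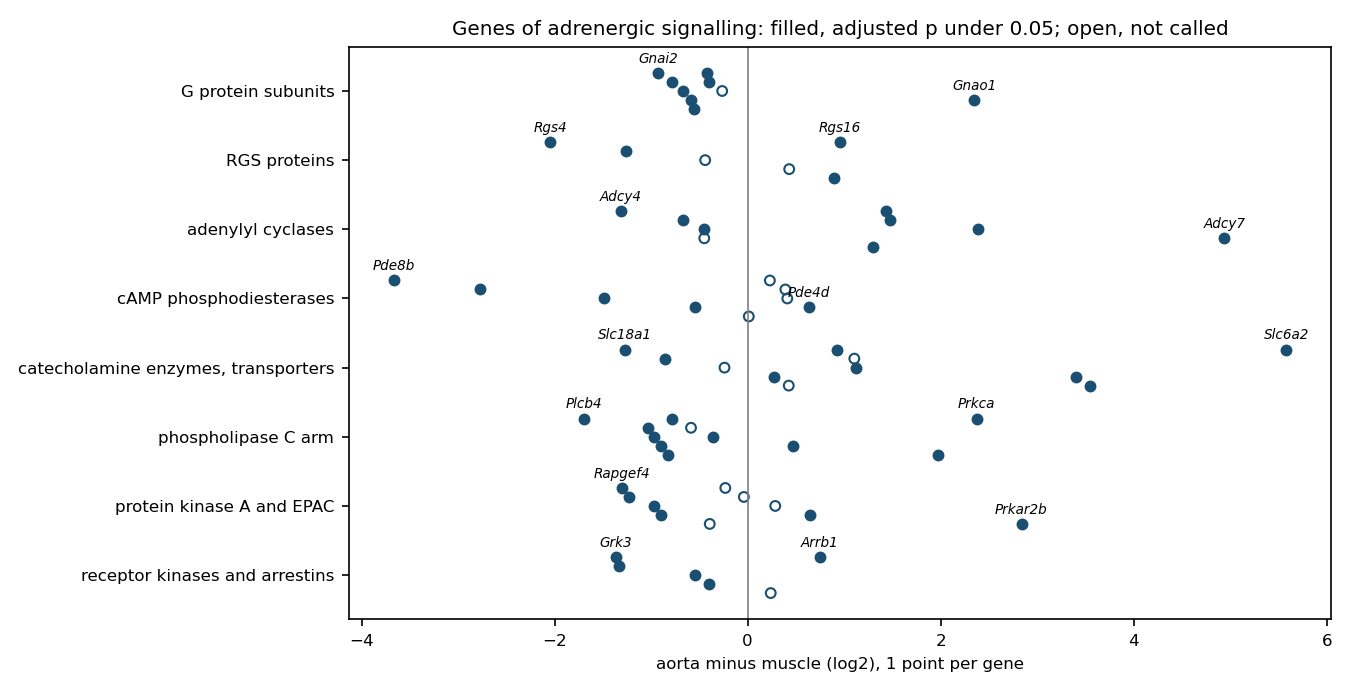
Log2 difference between aorta and muscle for each tested gene of 8 lists of adrenergic signalling, with genes called at an adjusted p under 0.05 filled and the 2 outermost genes of each list named. Values run from −3.67 (Pde8b) to 5.58 (Slc6a2, largely background in muscle), and 7 of the 9 G protein subunits are called below 0.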

How the data were processed

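Agilent Whole Mouse Genome arrays of 1 colour were read for 24 samples. Per the file headers, the processed intensity was made by Feature Extraction 10.5.1.1 (the submitters' processing notes name 9.1), with background subtraction and detrending and no scaling between arrays. As deposited, the files also hold median intensity values and other marks for spots above background or of outlying signal. The authors also deposited log2 values, which for nearly all probes equal the log2 processed intensity plus a constant of the array. The 75th percentile of intensity was 2390 to 5938, and 59.5% to 75.7% of 43379 spots were well above background. The number of arrays limits the precision.

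Here, log2 intensity relative to the 75th percentile of the array was averaged per probe without outlier spots. Probes above background (at least 0.5 of spots) on every array of 1 group were tested with limma (version 3.58.1, under R 4.3.3), with Benjamini-Hochberg adjustment over all of them. Diet was blocked by strain and experiment, after the paired ratios of the methods. Strains were compared as group means, and tissues were blocked by pool but not by slide. Same-numbered HFD and chow arrays deviated together with correlations of 0.015 to 0.56 (median 0.34). KO and WT arrays, which the strain fit left unpaired, did so with 0.12 to 0.77 (median 0.48), and aorta and muscle arrays with 0.14 to 0.54 (median 0.43). For diet, the p-values measure the spread of the HFD to chow differences between the 3 experiments. For tissue, they measure the spread of the aorta to muscle differences between pools, and for strain the spread of the pools within a group. The experiments were scanned in 2 sessions (experiment 1 apart). Genes above background on 6 or fewer of the 12 arrays of a tissue are given without a fold. The tests were tried on simulated data. Alternatives were normexp (offset 50) on median intensity, quantile normalization, the deposited table, 2 other filters, leaving out experiments, other blocks, other probes and the methods' t-tests. Named genes are all members, the called genes of the pathway lists (at most 5 per list by size), up to 3 by smallest p where none was called, and the 3 symbols most like a member. Members and lists were chosen with earlier results of these data known. Gene names and positions come from RefSeq tables of GRCm38.p6, which matched 27198 of 41174 probes. Per-sample columns not used numbered 0.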

Additional observations from a re-analysis of the deposited data

How the results depend on the processing

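The number of receptors called stayed at 0 in every diet, strain and interaction comparison under each alternative run, including the strain fit with the replicate number as a block (0 called) and the fits without the replicate block (0). Between aorta and muscle, 6 were called, 5 without the replicate block, 4 to 5 when 1 experiment was left out, 4 of 5 with probes above background on every array, and 6 without the HFD arrays of experiment 1, an alternative chosen after seeing the data. Of 1026 values of single receptors under the alternatives, 57 changed sign, of which 56 were not called and had a value within its SE on one side, and 1, the second Adrb1 probe between the tissues (−0.21), reversed a call; the cause was not tested. Many of the 1026 values could hardly change. The fits with other blocks and the methods' t-test reuse the same differences, and Adra1d, Adra2b and Adra2c have no second probe. The share of sign changes is therefore no measure of stability. Of the receptors with more than 1 probe, only Adra2a and Adrb1 had a second one tested, and Adra2a was called with it too. Adra1a became a call without experiment 2 (−0.57, limma adjusted p = 0.018). It was lower in aorta and is 1 of the 5 called in that fit, so 4 were called higher there. Adra1d lost its call without the block (limma adjusted p = 0.20). Counts over all probes moved by more than 1.5 times for diet in muscle, from 74 to 221 with normexp, 247 with the filter on every array and 1 with no filter, and in aorta from 8 to 55, 41 and 50 (no block). They fell to 0 without any one experiment in both tissues. Signals near background limit Adrb1 in muscle and the second probes of Adra1a and Adra1b, and 3 arrays a group limit all diet and strain comparisons.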
